A study of Homo sapiens with 6 samples.

Results

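The genes described here are the translation initiation factors (eIFs) and elongation factors (eEFs), the proteins that bring ribosomes to messenger RNAs and move them along. They were chosen as every protein-coding gene whose symbol starts with EIF or EEF, leaving out the eIF2 kinases EIF2AK1 to EIF2AK4 and the tRNA synthetase scaffold gene EEF1E1. This gave 64 of the 58302 genes listed, 51 with an EIF symbol and 13 with an EEF symbol. RNA was sequenced from HCCLM3, an established human hepatocellular carcinoma line, transfected with antisense oligonucleotides (ASOs), which are short synthetic strands made to lower the RNA they match. The SCARNA13 ASO group and the Control ASO group held 3 libraries each, and the study asked which genes lie downstream of SCARNA13, a small Cajal body RNA. The labels give neither the dose nor the time of transfection. They do not tie the libraries of a group to separate cultures, and the spread behind each p-value may then be technical. In both groups the replicate 3 library stood apart from replicates 1 and 2 along the GC content of the genes, which touches every result below.

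Initiation starts when eIF2, bound to GTP and initiator tRNA, joins the small ribosomal subunit with eIF1, eIF1A, eIF3 and eIF5, while eIF4E, eIF4G and the helicase eIF4A bring the capped messenger RNA. eIF2B reloads eIF2 with GTP, and 4E-BP proteins hold eIF4E away from eIF4G until mTOR phosphorylates them. In elongation eEF1A delivers tRNAs, eEF2 moves the ribosome on and eIF5A helps it through difficult peptide bonds. Many of these messenger RNAs are abundant in growing tumour cells.

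The messenger RNA of 1 factor, EIF3E, passed as higher with SCARNA13 ASO both in a GC-corrected fit and in a read-based fit. Both fits paired libraries by replicate number, and most other factors passed in neither. EIF3E encodes the e subunit of eIF3, the scaffold that holds initiation factors on the small subunit, and lies on the minus strand of chromosome 8. It stood at 17.7, 16.2 and 5.57 FPKM in the SCARNA13 ASO libraries (replicates 1, 2 and 3), against 12.6, 11.8 and 3.89 FPKM in the Control ASO libraries. FPKM is the number of fragments per kilobase of gene, scaled to library size. Each SCARNA13 ASO library lay above the Control ASO library of its number, but the groups overlapped because both replicate 3 libraries were low. On GC-corrected log2(FPKM + 0.5) values with replicate number as a block, EIF3E rose by 0.43 ± 0.056 (log2 fold change ± SE, n = 3 per group, limma adjusted p = 0.0370). A fold change on this scale understates the change of low genes. In bulk RNA, a change in the mix of cells and a change in RNA per cell cannot be told apart.

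EIF3E was the only 1 of the 54 tested factors to pass in that fit, against 526 of all 10104 genes tested, or 5.21% (3.06% rose and 2.15% fell). The members' share, 1.85%, lay under that background. At an unadjusted p under 0.05 the fit held 20 of the 54, or 37%, against 31.3% of all genes. The fit with group as its only term called 0 of the 54, and 0 of 10120 genes (0%). At the same unadjusted level the group-only fit held 0 of the 54 and 173 of all genes, or 1.71%. The EIF3E call was lost without the block (limma adjusted p = 0.707), without GC correction (0.0659), without the filter on low values (0.177), without the intensity trend (0.0692), and without the replicate 1 (0.111) or replicate 2 libraries (0.136) of both groups.

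Whole read numbers could be recovered from the FPKM values, and a limma-voom fit of those reads with the replicate block called 9 of the 54 factors, or 16.7%, against 1392 of 10120 genes, or 13.8%. EIF3E, EIF4EBP1, EEFSEC, EIF2S3 and EIF2S2 rose in it (741 of all genes, 7.32%). EIF4A2, EIF4EBP2, EIF3B and EIF2B2 fell (651 of all genes, 6.43%). The members' share was close to the background, so it says nothing particular about translation factors. With the replicate 1 libraries left out 3 of the 54 passed, against 6.93% of all genes, and with the replicate 2 libraries left out 4 did, against 9.18%. With the replicate 3 libraries left out 22 did, when 2685 of all 10156 genes, or 26.4%, passed as well. EIF3E and EIF2S3 passed in each of those 3 fits. In the text below, "on reads" means this fit, and "GC-corrected" means the fit in the paragraph above.

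**Figure D1:**
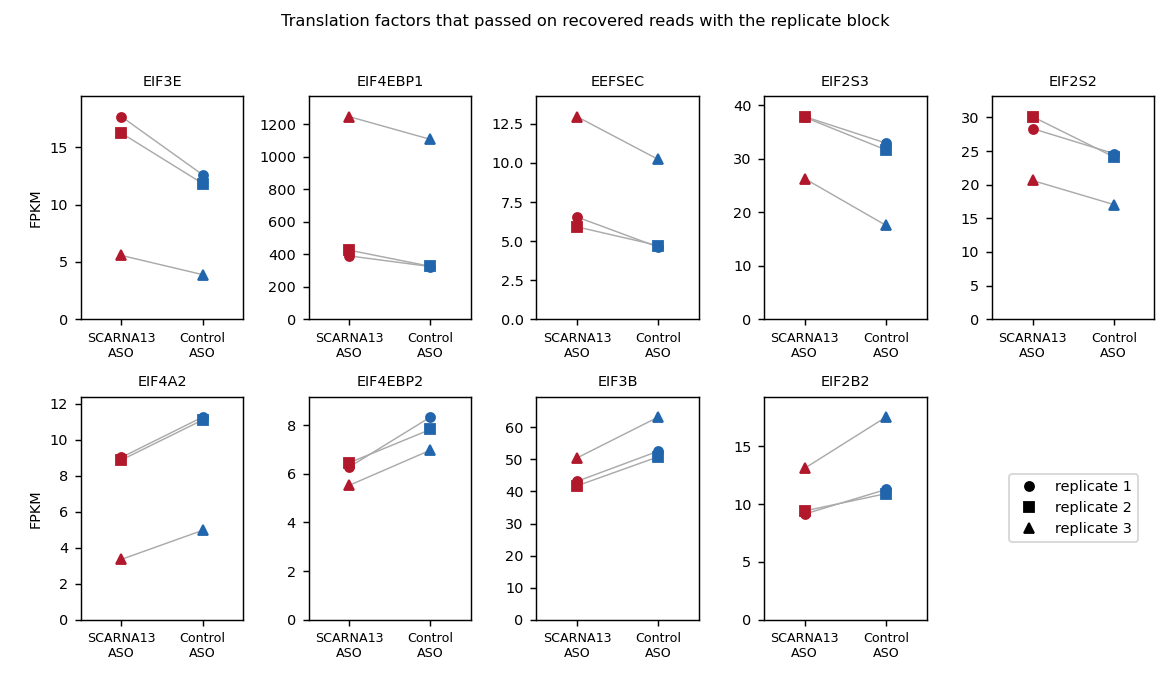
FPKM (vertical axes, from 0) of the 9 translation factors called on reads, in the SCARNA13 ASO libraries (left, red) and the Control ASO libraries (right, blue), with a grey line joining libraries of the same replicate number and a marker shape per replicate. All 3 lines slope the same way in every panel, and the replicate 3 libraries (triangles) lie far from the others for EIF3E, EIF4EBP1, EEFSEC and EIF4A2.

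The plot of the 9 factors shows that the spread between replicate numbers was often larger than the difference between the ASO groups. For EIF4EBP1, the replicate 3 libraries averaged 3.21 times replicates 1 and 2, while its fold change between groups on reads was 1.24.

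Promoters are shown for 2 factors that rose and 2 that fell on reads, those with the largest changes among the called factors with a window in the RefSeq table. They are the 250 bases before the RefSeq gene start in build GRCh38.p14, 5′ to 3′ on the gene's strand. Capitals mark a CACGTG or GGGCGG match on either strand (CCGCCC is GGGCGG on the other strand). The RefSeq start can differ from the gene start listed with the FPKM values. By the listed starts, the EIF4A2 window lies wholly inside its gene (start 186783205). Most of the EIF2S3 window (start 24054716) and the end of the EEFSEC window (start 128153454) also lie inside. The windows may thus hold transcribed bases.
EEFSEC promoter, chr3:128153231-128153480, plus strand: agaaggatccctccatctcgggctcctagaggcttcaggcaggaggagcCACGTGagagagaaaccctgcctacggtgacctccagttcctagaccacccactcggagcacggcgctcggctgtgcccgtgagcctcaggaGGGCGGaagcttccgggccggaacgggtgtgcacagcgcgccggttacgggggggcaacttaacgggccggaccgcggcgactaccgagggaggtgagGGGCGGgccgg
EIF2S3 promoter, chrX:24054706-24054955, plus strand: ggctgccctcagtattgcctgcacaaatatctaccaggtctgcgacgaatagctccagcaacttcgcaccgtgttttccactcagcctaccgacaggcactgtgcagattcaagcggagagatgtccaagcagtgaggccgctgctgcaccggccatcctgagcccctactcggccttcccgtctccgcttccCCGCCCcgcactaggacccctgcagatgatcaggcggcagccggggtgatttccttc
EIF4A2 promoter, chr3:186783327-186783576, plus strand: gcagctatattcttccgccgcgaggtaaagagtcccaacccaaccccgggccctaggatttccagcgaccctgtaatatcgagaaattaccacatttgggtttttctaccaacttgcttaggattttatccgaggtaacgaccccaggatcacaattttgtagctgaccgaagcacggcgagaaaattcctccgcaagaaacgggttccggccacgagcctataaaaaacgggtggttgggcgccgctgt
EIF4EBP2 promoter, chr10:70403895-70404144, plus strand: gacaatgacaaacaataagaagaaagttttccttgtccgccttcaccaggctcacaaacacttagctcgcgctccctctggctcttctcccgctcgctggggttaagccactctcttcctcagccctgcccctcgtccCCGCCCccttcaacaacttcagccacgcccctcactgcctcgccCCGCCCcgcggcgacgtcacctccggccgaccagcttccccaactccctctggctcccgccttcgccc
The first 2 genes rose on reads and the last 2 fell. The EEFSEC window holds CACGTG, the E-box that MYC-family proteins bind, 201 bases before the RefSeq start, and 2 GGGCGG boxes, the sequence bound by SP1-type factors. The EIF2S3 window holds 1 GGGCGG box, the EIF4EBP2 window 2, and the EIF4A2 window none of the motifs searched. Of the 64 members, 51 had such a window. These include members that were not tested, such as EIF4A1 and EIF4E, so the windows of genes tested are not a like set. CACGTG was in 13 of the 51 windows, or 25.5%, against 9.52% of the 7209 windows of genes tested and 6.49% of all 27305 windows. GGGCGG was in 72.5% of the members' windows, against 71.1% of those of genes tested. CCAAT, the box bound by NF-Y, was in 35.3% against 35.1%, and TGATGNAA, the core of the element that ATF4 binds in amino acid response genes, was in 0 against 1.21%. Both strands were searched, and a match is a description of letters, not of binding.

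SCARNA13 itself had 0.268, 0.383 and 0.468 FPKM in the SCARNA13 ASO libraries, against 0.717, 0.683 and 0.556 FPKM in the Control ASO libraries. The groups did not overlap in FPKM, but these values rest on 2, 3 and 2 reads against 6, 5 and 2 reads. On FPKM the two-sided exact permutation test gave p = 0.1, the smallest that 3 against 3 allows. The replicate 3 libraries both held 2 reads, of 20457474 recovered with SCARNA13 ASO and 20663908 with Control ASO. Per recovered read SCARNA13 was thus not lower with SCARNA13 ASO in replicate 3, and the groups overlapped. Libraries held 20457474 to 25173559 recovered reads over genes, and intervals on such reads would cover counting error only. Over the most GC-rich decile of genes, the median deviated from the mean of the 6 libraries by 0.76 in SCARNA13 ASO replicate 3 and 1.05 in Control ASO replicate 3 (log2), and by -0.5 to -0.39 in the other 4. The size to which FPKM is scaled also differed, since the library size implied by FPKM was 0.760 and 0.633 times the recovered reads in SCARNA13 ASO and Control ASO replicate 3, and 1.21 to 1.24 times in the others. Keratins KRT8, KRT18 and KRT19 lay between 389 and 2725 FPKM. The other epithelial markers went the other way, with CDH1 at 0 in every library and EPCAM averaging 0.041 FPKM with SCARNA13 ASO and 0.070 FPKM with Control ASO. The hepatocyte genes ALB, APOB and GPC3 were at 0 in every library and 6 of 7 hepatocyte markers averaged under 1 FPKM, so the labelled hepatocellular origin was not visible in them. All 4 endothelial, 5 of 6 fibroblast and 5 of 6 immune markers averaged under 1 FPKM. Summed, the immune list was at 2.25 to 3.27 FPKM with SCARNA13 ASO and 2.87 to 6.85 FPKM with Control ASO, with CD3E and LYZ among the genes at 0 and CD14 lower on reads (limma adjusted p = 0.0160). The fibroblast list summed to 6.24 to 8.40 FPKM against 5.83 to 6.87 FPKM, mostly COL3A1, which was higher on reads (limma adjusted p = 0.0452). The part of these cells in the results was not tested.

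**Figure D2:**
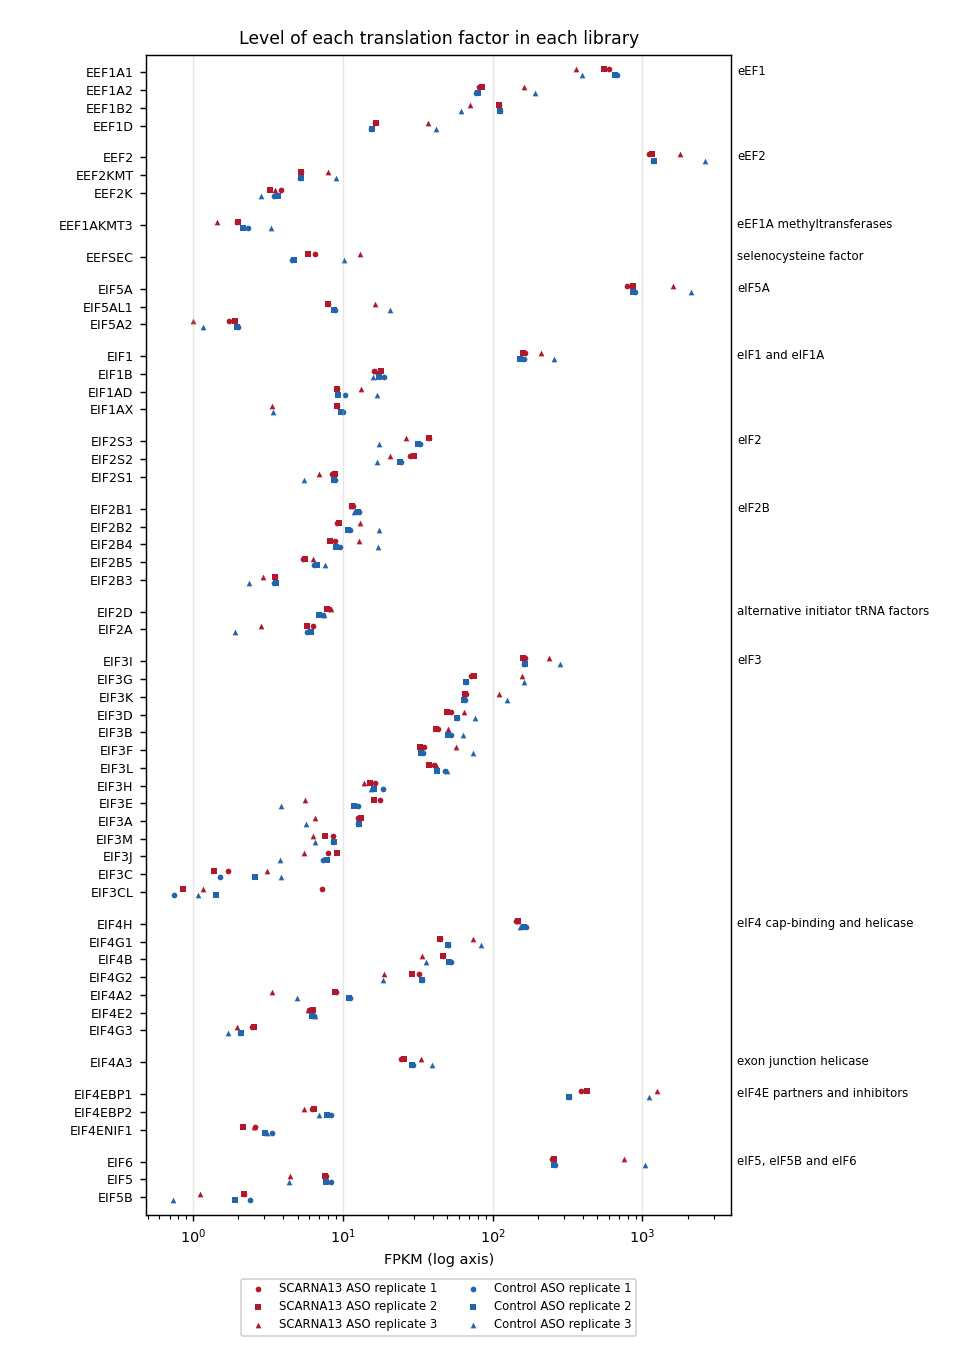
FPKM (horizontal, log axis) of the 54 translation factors tested, grouped by complex, with SCARNA13 ASO libraries in red above Control ASO libraries in blue and a marker shape per replicate. EEF2, EIF5A, EIF4EBP1, EEF1A1 and EIF6 reach the highest levels, and the replicate 3 triangles lie apart from both other markers for many genes, to the right for EIF6 and to the left for EIF3E.

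The 64 members took 2.10%, 2.09% and 1.79% of all reads in the SCARNA13 ASO libraries, against 2.21%, 2.19% and 1.88% in the Control ASO libraries. The share was lower with SCARNA13 ASO in 3 of 3 pairs of libraries, by less than the gap between replicate 3 and the others. As a share of summed FPKM the members took 1.52%, 1.53% and 1.496%, against 1.53%, 1.54% and 1.45%, so that replicate 3 went the other way on that scale. The 54 tested members had at least 44 reads in every library, with a median of 1553.5. Their median GC-corrected log2 fold change was -0.09, with quartiles of -0.17 and 0.10, against 0.00027 over all genes tested. Of the 54, 34 lay under 0 (63.0%), against 49.9% of all genes. In 24 of them, or 44.4%, the SCARNA13 ASO library was lower in 3 of 3 pairs, against 28.3% of all genes, and in 14, or 25.9%, it was higher in 3 of 3, against 28.9%. On uncorrected FPKM, every SCARNA13 ASO value lay below every Control ASO value for 8 of the 54, or 14.8%, against 4.44% of all genes. These were EIF2B1, EIF2B5, EIF3B, EIF3L, EIF4H, EIF4EBP2, EIF4ENIF1 and EEF1AKMT3. EIF2D alone showed the opposite, against 4% of all genes. In recovered reads, replicate 3 was higher with SCARNA13 ASO for EIF2B1 (646 against 569), EIF4H (7304 against 6326) and EIF3L (2806 against 2789). EIF2B5 was nearly level (564 against 565), and EIF3B, EIF4EBP2, EIF4ENIF1 and EEF1AKMT3 held fewer reads with SCARNA13 ASO. Depth was similar in both replicate 3 libraries. No test was made of these shares, and members of a complex are not independent of each other.

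The eIF2 complex carries initiator tRNA, and all 3 of its subunits had a GC-corrected fold change above 0, of which 2 rose on reads. EIF2S3, the GTP-binding gamma subunit (chrX:24054716-24077971, plus strand), had 37.9, 37.8 and 26.3 FPKM in the SCARNA13 ASO libraries, against 33.0, 31.7 and 17.6 FPKM in the Control ASO libraries. The pairs agreed in direction, and SCARNA13 ASO replicate 3 lay below Control ASO replicates 1 and 2. EIF2S3 rose 1.28-fold on reads (log2 0.36 ± 0.092, SE, limma adjusted p = 0.0249), and its GC-corrected value was 0.33 ± 0.071 (adjusted p = 0.0640). Without 1 replicate number at a time its adjusted p on reads was 0.0234, 0.0191 and 0.000855. EIF2S2, the beta subunit (chr20:34088298-34112332, minus strand), had 28.3, 30.1 and 20.6 FPKM against 24.6, 24.1 and 17.1 FPKM. It rose 1.23-fold on reads (limma adjusted p = 0.0284), but not without replicate 1 (0.136) or replicate 2 (0.189). EIF2S1, the alpha subunit that stress kinases phosphorylate, had 8.50, 8.84 and 6.94 FPKM against 8.93, 8.81 and 5.53 FPKM, and a GC-corrected change of 0.05 ± 0.076 (limma adjusted p = 0.680). Without the replicate 3 libraries the EIF2S1 value was -0.03. The beta and gamma subunits were higher in 3 of 3 pairs, and the alpha subunit in 2 of 3.

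The eIF2B complex, the exchange factor for eIF2, had 4 of 5 subunits with a value under 0, and 1 fell on reads. EIF2B2, its beta subunit (chr14:75002911-75012366, plus strand), had 9.15, 9.42 and 13.1 FPKM in the SCARNA13 ASO libraries, against 11.3, 10.9 and 17.5 FPKM in the Control ASO libraries. Each SCARNA13 ASO library was below its pair, though SCARNA13 ASO replicate 3 lay above Control ASO replicates 1 and 2. EIF2B2 fell by 17.1% on reads (limma adjusted p = 0.0370), and did not pass without replicate 1 (0.291) or replicate 2 (0.147). Opposite-strand genes overlap 23.6% of its exonic bases, and the kit named in the labels does not mark strand, so reads of the overlap cannot be assigned. EIF2B5, the catalytic epsilon subunit, had 5.46, 5.60 and 6.36 FPKM against 6.44, 6.71 and 7.57 FPKM, with groups that did not overlap and a GC-corrected value of -0.21 ± 0.059 (limma adjusted p = 0.0898). EIF2B1, the alpha subunit, had 11.7, 11.6 and 11.5 FPKM against 13.0, 12.7 and 11.985 FPKM, also without overlap, at -0.11 ± 0.052 (limma adjusted p = 0.210). Opposite-strand genes cover 15.6% of the exonic bases of EIF2B1. Among the factors that place tRNA on the start codon without eIF2, EIF2D stood at 8.07, 7.85 and 8.33 FPKM against 7.44, 6.97 and 7.49 FPKM. Its groups did not overlap either, and its change of 0.13 ± 0.060 did not pass (limma adjusted p = 0.207).

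Among the 14 genes of eIF3, all tested, 5 had a GC-corrected value above 0 and 9 below, between -0.27 and 0.79. EIF3E was the only gene of the complex to pass GC-corrected, and on reads it rose 1.42-fold (log2 0.51 ± 0.080, SE, limma adjusted p = 0.00302). On reads its adjusted p was 0.0179 without replicate 1, 0.00506 without replicate 2 and 9.14e-07 without replicate 3. EIF3B, the RNA-binding b subunit of the core (chr7:2354086-2380745, plus strand), had 43.1, 41.8 and 50.4 FPKM in the SCARNA13 ASO libraries, against 52.6, 50.8 and 63.2 FPKM in the Control ASO libraries. Its groups did not overlap. EIF3B fell by 16.4% on reads (limma adjusted p = 0.0290), but its adjusted p was 0.365 without replicate 1 and 0.262 without replicate 2. EIF3I, the most abundant subunit, had 164, 159 and 238 FPKM against 163, 166 and 282 FPKM, and -0.07 ± 0.066 (limma adjusted p = 0.494), or -0.0065 without replicate 3.

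The remaining eIF3 subunits included a pair of copies whose values depended on single replicate numbers. EIF3CL, a near-identical copy of EIF3C, had 7.28, 0.862 and 1.17 FPKM in the SCARNA13 ASO libraries, against 0.745, 1.43 and 1.09 FPKM in the Control ASO libraries. SCARNA13 ASO replicate 1 alone was high, with 611 reads where the other 5 libraries had 44 to 118. The GC-corrected value, 0.79 ± 0.60 (limma adjusted p = 0.412), was -0.14 without the replicate 1 libraries. On reads EIF3CL passed without replicate 2 or replicate 3, both fits that keep that library. EIF3C had 1.73, 1.40 and 3.11 FPKM against 1.51, 2.61 and 3.86 FPKM, and -0.27 ± 0.17 (limma adjusted p = 0.328). Its value was -0.063 without replicate 2 and -0.49 without replicate 1, and on reads without replicate 1 it passed (-0.56, limma adjusted p = 0.0347). Reads of EIF3C and EIF3CL may be split between the copies, so neither level is certain. EIF3J, a loosely bound subunit involved in start-site selection and recycling, had 7.97, 9.17 and 5.52 FPKM against 7.40, 7.89 and 3.83 FPKM, and 0.23 ± 0.077 (limma adjusted p = 0.126), or 0.15 without replicate 3. EIF3L had 40.6, 37.4 and 42.0 FPKM against 48.0, 42.6 and 49.6 FPKM, and -0.20 ± 0.048 (limma adjusted p = 0.0710). The groups did not overlap for EIF3L, whose exons share 41.1% of their bases with a same-strand gene.

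Of the 11 genes of the eIF4 cap-binding and helicase group, 7 were tested, 6 had a value under 0 and 1 fell on reads. EIF4A2, a paralog of the eIF4A helicase (chr3:186783205-186789900, plus strand), had 9.03, 8.88 and 3.36 FPKM in the SCARNA13 ASO libraries, against 11.3, 11.1 and 4.97 FPKM in the Control ASO libraries. It was lower in 3 of 3 pairs, but the groups overlapped through Control ASO replicate 3. EIF4A2 fell by 21.1% on reads (limma adjusted p = 0.0199), and GC-corrected its value was -0.40 ± 0.084 (adjusted p = 0.0593). On reads it did not pass without replicate 1 (adjusted p = 0.141) or replicate 2 (0.108). EIF4A3, the related helicase of the exon junction complex and no part of eIF4F, had 24.7, 25.7 and 33.3 FPKM against 29.3, 29.3 and 39.7 FPKM, and -0.23 ± 0.055 (limma adjusted p = 0.0697). EIF4G3, a paralog of the scaffold eIF4G, was at 2.49, 2.54 and 1.97 FPKM against 2.07, 2.09 and 1.72 FPKM, and 0.20 ± 0.085 (limma adjusted p = 0.184). EIF4H, a cofactor of the helicase and the most abundant tested gene of the group, had 144, 148 and 147 FPKM against 167, 162 and 152 FPKM. EIF4H did not overlap between groups in uncorrected FPKM, and its GC-corrected value was -0.09 ± 0.065 (limma adjusted p = 0.395). GC-corrected, the replicate 3 pair went the other way, at 0.04 against -0.20 and -0.11 in pairs 1 and 2. Without replicate 3 EIF4H was at -0.16 and passed on reads (limma adjusted p = 0.00529).

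The 2 tested genes for 4E-BP proteins, which hold eIF4E away from eIF4G, stood at different levels and moved in opposite directions on reads. EIF4EBP1, on the plus strand of chromosome 8, had 389, 425 and 1245 FPKM in the SCARNA13 ASO libraries, against 324, 325 and 1106 FPKM in the Control ASO libraries. EIF4EBP2 (chr10:70404379-70428618, plus strand) had 6.27, 6.45 and 5.52 FPKM against 8.33, 7.82 and 6.97 FPKM. EIF4EBP1 was higher in 3 of 3 pairs with overlapping groups, and EIF4EBP2 was lower in 3 of 3 with groups that did not overlap. EIF4EBP1 rose 1.24-fold on reads (limma adjusted p = 0.0145), and its GC-corrected value of 0.36 ± 0.066 had an adjusted p of 0.0505. EIF4EBP2 fell by 19.3% on reads (limma adjusted p = 0.0276), and GC-corrected it was at -0.33 ± 0.066 (adjusted p = 0.0568). On reads, EIF4EBP1 did not pass without replicate 1 (adjusted p = 0.201) or replicate 2 (0.215), nor did EIF4EBP2 (0.341 and 0.138). EIF4ENIF1, which carries eIF4E into the nucleus and into P-bodies, had 2.62, 2.18 and 2.58 FPKM against 3.37, 3.04 and 3.13 FPKM. Its groups did not overlap, and its GC-corrected value was -0.28 ± 0.080 (limma adjusted p = 0.0932).

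eIF1 and eIF1A keep the scanning ribosome open. Their group, which by symbol also holds EIF1AD (-0.17), had 4 tested genes, all with a value under 0, and none passed in either blocked fit. EIF1 had 166, 159 and 210 FPKM in the SCARNA13 ASO libraries, against 163, 153 and 258 FPKM in the Control ASO libraries. Its value of -0.07 ± 0.099 (limma adjusted p = 0.658) was 0.06 without the replicate 3 libraries. EIF6, which keeps the large subunit from joining too early, had 249, 257 and 749 FPKM against 262, 258 and 1040 FPKM, and -0.12 ± 0.074 (limma adjusted p = 0.319). For EIF1 and EIF6 the groups differed mostly in replicate 3, the library number that stood apart, and the EIF6 value was -0.04 without it.

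EEFSEC, the elongation factor that delivers selenocysteine tRNA to recoded UGA codons, rose on reads. It lies at chr3:128153454-128408646 on the plus strand and had 6.54, 5.91 and 13.0 FPKM in the SCARNA13 ASO libraries, against 4.62, 4.72 and 10.2 FPKM in the Control ASO libraries. It was higher in 3 of 3 pairs. EEFSEC rose 1.35-fold on reads (log2 0.43 ± 0.11, SE, limma adjusted p = 0.0222), with a GC-corrected value of 0.43 ± 0.081 (adjusted p = 0.0515). Without replicate 1 its adjusted p on reads was 0.187, and 15.3% of its exonic bases are overlapped by RUVBL1 on the opposite strand.

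None of the general elongation factors passed in either blocked fit, and EEF2 was the most abundant member of all. EEF2, the translocase, had 1108, 1154 and 1786 FPKM in the SCARNA13 ASO libraries, against 1182, 1200 and 2603 FPKM in the Control ASO libraries, and -0.16 ± 0.087 (limma adjusted p = 0.258). EEF1A1, the main tRNA carrier, had 601, 558 and 363 FPKM against 679, 652 and 396 FPKM, and -0.18 ± 0.057 (limma adjusted p = 0.115). Both were lower in 3 of 3 pairs, and replicate 3 was high for EEF2 and low for EEF1A1. The processed pseudogene EEF1A1P5 held 82.2 to 128 FPKM against 80.1 to 193 FPKM, so reads of EEF1A1 may have been split. EIF5A had 791, 867 and 1592 FPKM against 894, 862 and 2096 FPKM, and -0.12 ± 0.077 (limma adjusted p = 0.327). Without the replicate 3 libraries the value was -0.08 for EEF2, -0.08 for EIF5A and -0.18 for EEF1A1. Of these, EEF1A1 passed on reads without them (-0.19, limma adjusted p = 0.000438), when 26.4% of all genes passed as well. All 3 eIF5A genes had a value under 0, and EIF5AL1 is a near-identical copy of EIF5A. In the eEF1 complex 3 of 4 tested genes lay above 0, the highest of them EEF1D at 0.074. EEF1AKMT3, a lysine methyltransferase of eEF1A, had 1.96, 2.00 and 1.46 FPKM against 2.35, 2.18 and 3.32 FPKM. Its groups did not overlap, and its value of -0.41 ± 0.20 (limma adjusted p = 0.219) was -0.13 without the replicate 3 libraries. Other genes share 19.1% of its exonic bases, 3.2% on the same strand.

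**Figure D3:**
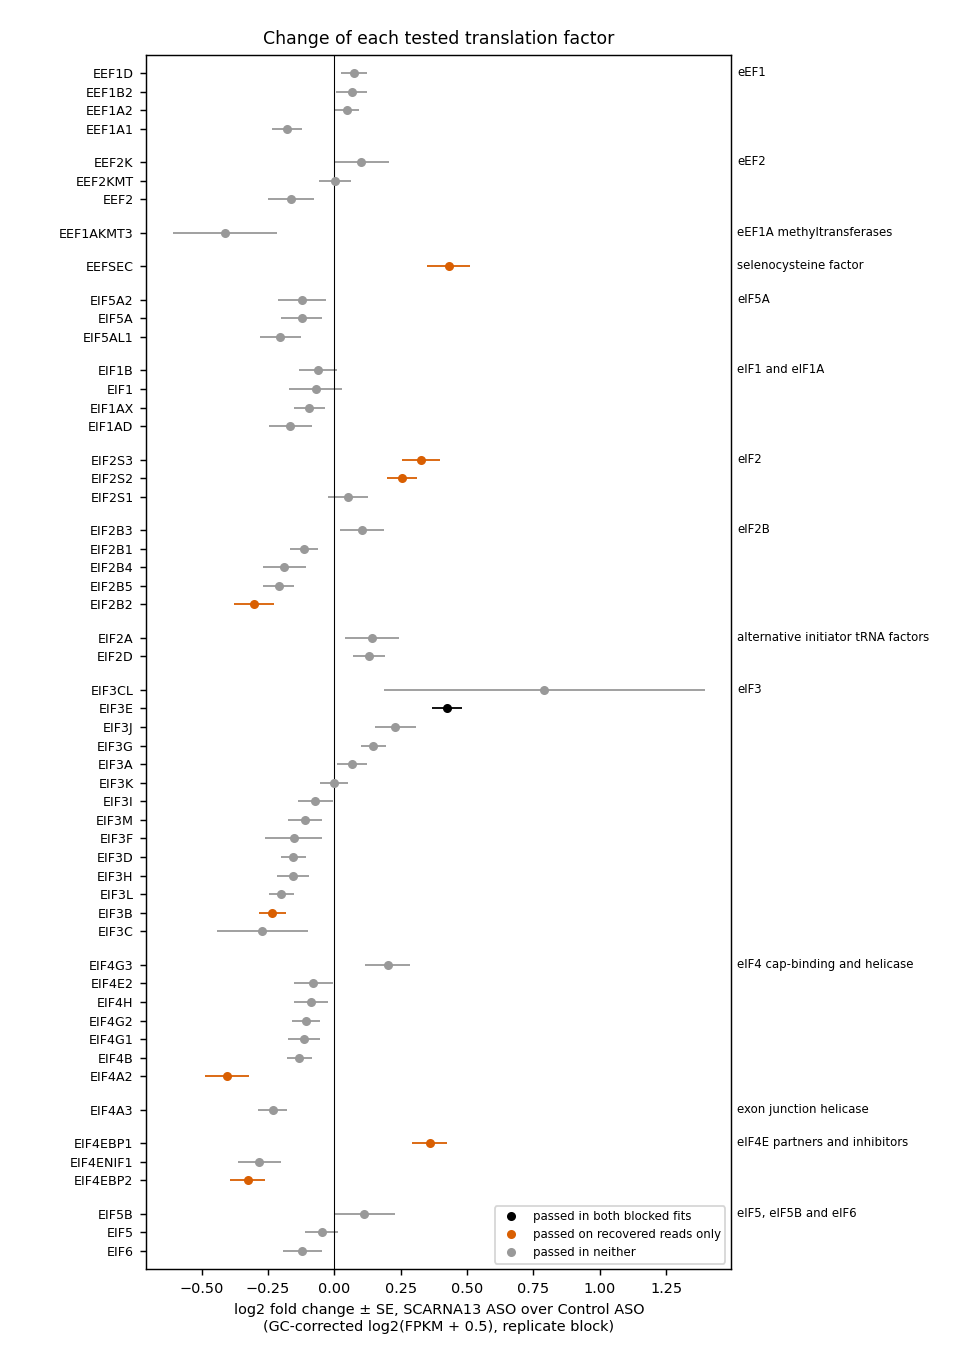
GC-corrected log2 fold change (horizontal, SCARNA13 ASO over Control ASO, bars ± SE, replicate block, n = 3 per group) of the 54 tested translation factors by complex, with genes ordered by value within a complex. EIF3E (black) passed in both blocked fits, 8 genes (orange) passed on reads only, and most values lie within 0.3 of 0, apart from EIF3CL with its long bar.

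The plot of fold changes by complex shows values on both sides of 0 in most complexes with several members. The eIF2 genes and the pair EIF2A and EIF2D lay wholly above 0, and the eIF5A group and the eIF1 and eIF1A group lay wholly below it. This depended in part on replicate 3, since without it EIF2S1 was at -0.03, EIF2A at 0.02 and EIF1 at 0.06.

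The 10 members under the filter of a mean of 1 FPKM were not tested. EEF1G, EEF1AKMT1 and the read-through gene EEF1E1-BLOC1S5 were at 0 in every library, and the level of EIF1AY is not given here. EEF1G encodes a subunit of the eEF1 complex, and AP002990.1 shares 99.9% of its exonic bases on the same strand and was itself at 0.277 to 0.322 FPKM against 0.181 to 0.617 FPKM. EIF4A1, the main eIF4A helicase, was at 0.707, 0.732 and 0.774 FPKM in the SCARNA13 ASO libraries, against 0.785, 0.869 and 1.35 FPKM in the Control ASO libraries. Same-strand genes share 48.6% of its exonic bases. EIF4E, which binds the cap itself, was at 0.953, 0.868 and 0.590 FPKM against 1.07, 1.07 and 0.315 FPKM. EIF4E held 364, 348 and 129 reads against 458, 402 and 58 reads, and its FPKM divides them by a listed length of 14067 bases. How reads in shared exons were counted is not known from the sources used here, so the EIF4A1 and EEF1G levels are given only as listed. EEF1AKMT2, EIF4E3, EIF4E1B and EIF4EBP3 stayed under 0.5 FPKM in every library.

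**Figure D4:**
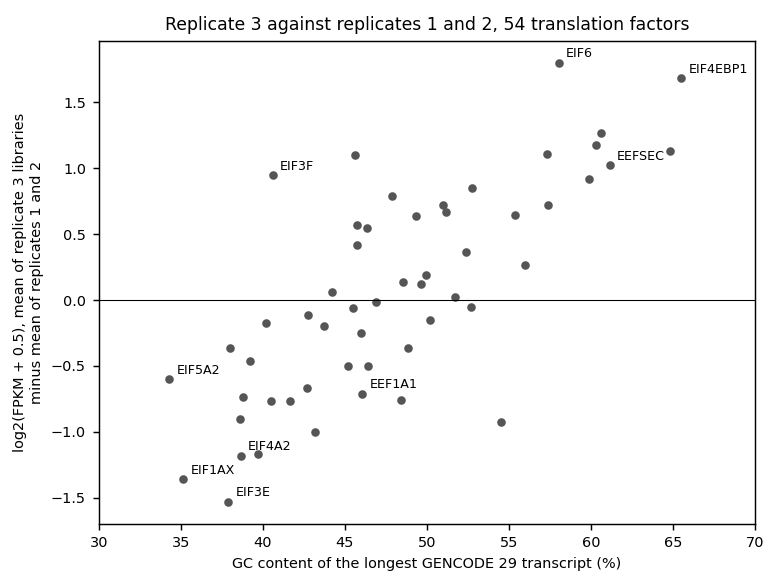
Difference between the replicate 3 libraries and the replicate 1 and 2 libraries (vertical, log2 of FPKM + 0.5, mean over both ASO groups) against the GC content of the longest transcript (horizontal, percent) for the 54 tested translation factors. GC-rich genes such as EIF6, EIF4EBP1 and EEFSEC were higher in replicate 3, and GC-poor genes such as EIF3E, EIF1AX and EIF4A2 were lower.

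The replicate 3 shift sorted the factors by GC content, as the plot of that shift shows. The ratio of replicate 3 to replicates 1 and 2 ran between 0.324 for EIF3E and 3.49 for EIF6. Pearson's r between GC content and the shift was 0.76 and Spearman's rho 0.74 over the 54 genes, which share the same 6 libraries and are not independent replicates. GC content lay between 34.3% and 65.5%, with a median of 46.7% for the members and 51.2% for all genes tested. Across the same genes r between GC content and the GC-corrected fold change was 0.14. With the replicate 3 libraries left out, the group-only fit called 10 of the 54 factors, or 18.5%, against 908 of 10156 genes, or 8.94%. These were the 9 factors called on reads and EIF4A3, 5 higher (4.41% of all genes) and 5 lower (4.53%). With GC correction and the block, 4 passed in those libraries, against 766 of 10140 genes, or 7.55%. EIF3E (0.45, limma adjusted p = 0.0302) and EIF4EBP1 were higher (4.16% of all genes), and EIF3B and EIF4A2 were lower (3.39%).

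Beyond the factors themselves, 4 lists of translation partners held 37 genes, of which 33 were tested, and 1 rose and 1 fell GC-corrected, near the 5.21% of all genes. TSC2, which restrains mTOR, had 8.30, 8.64 and 20.9 FPKM in the SCARNA13 ASO libraries, against 6.39, 6.77 and 17.5 FPKM in the Control ASO libraries, and rose by 0.38 ± 0.063 (limma adjusted p = 0.0450). DDX3X, a helicase that helps scanning, had 8.49, 7.99 and 4.75 FPKM against 11.4, 10.98 and 5.66 FPKM, and fell by 0.39 ± 0.059 (limma adjusted p = 0.0405). Both changes held in 3 of 3 pairs, and both calls were lost without the block and without the replicate 1 or replicate 2 libraries. On reads RPTOR, the mTORC1 scaffold, also rose and PELO, a ribosome rescue factor, also fell, making 4 of 33, near the 13.8% of all genes. Of the release and recycling list 5 of 6 genes were tested, with a median of -0.15, and of the poly(A)-binding and scanning list 10 of 10, with a median of 0.04. The signalling list had 11 of 12 tested and a median of 0.12, and the mitochondrial list 7 of 9 and 0.05, with none passing in either blocked fit.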

How the data were processed

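RNA-seq libraries of HCCLM3 cells, 3 per group, were compared as deposited. The values are FPKM per gene with a gene length column, per the file headers. Neither the counter nor the annotation is given in the sources used here. The submitters' processing notes name TopHat2 2.0.9, Bowtie2 2.0.6 and hg19, with no role. Gene coordinates equal GENCODE 29 (GRCh38) for 97.6% of matched IDs, so they are given as GRCh38. FPKM multiplied by gene length gave whole reads for 100% of values above 0 (tolerance 0.01 reads), which set the depth and fed the read-based fit.

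The group-only fit was limma-trend (limma 3.58.1, R 4.3.3) on log2(FPKM + 0.5) over genes averaging 1 FPKM or more. The second fit first removed from each library the loess curve (span 0.5) of its per-gene deviations against transcript GC content, then used replicate number as a block. The third scaled recovered reads by TMM (trimmed mean of M values) and used limma-voom with the block, and its fits without 1 replicate number were added after seeing the data. Tests were two-sided, Benjamini-Hochberg adjusted over all genes tested, called under 0.05, and tested on simulated data. Deviations from group means correlated at 0.835, 0.785 and 0.915 for same-numbered libraries, and at 0.805 and 0.814 for crossed numbers 1 and 2. The numbers were taken as pairs, although no label gives them as such. The values separate only replicate 3, and do not tell pairs 1 and 2 from the crossed pairs.

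Members, complexes and lists were chosen with earlier results of these data known. Named with values are the members that passed, the 8 highest and 8 lowest GC-corrected fold changes, the 6 most abundant, the most abundant of each complex, and complex partners or paralogs of these. The factors called on reads all lie within that rule. Promoters came from RefSeq (GRCh38.p14).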

Additional observations from a re-analysis of the deposited data

How the results depend on the processing

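The count of translation factors passing, 0 with group alone, was 1 with GC correction and the replicate block, and 0 with the block alone. Leaving out libraries gave 0 to 10. It also stayed at 0 under both other pseudocounts, no filter, no trend, recovered reads and rescaled totals. The count of 1 (EIF3E) in the GC-corrected fit became 0 without the block, without GC correction, without the filter and without the trend, 3 at pseudocount 0.1, and 9 on recovered reads with the block. Leaving out a replicate number gave 0 to 4 in that fit, and 3 to 22 in the read-based fit, where 26.4% of all genes passed at the 22. The count of 2 translation partners became 0 without the block, without GC correction, without the filter and without the trend, and 4 on recovered reads with the block. Leaving out a replicate number gave 0 to 2 in that fit, and 0 to 7 in the read-based fit. The cause was not tested. EIF1 turned from -0.07 to 0.065 without replicate 3 (0.052 on reads). EIF3CL turned from 0.79 to -0.14 without replicate 1 (-0.37 on reads). Of the other values of named factors, 307 kept direction and side of the threshold, 33 moved past it and 6 lost it, all 6 of EIF3E. SCARNA13 kept its direction throughout. Depth limits SCARNA13, at 2 to 6 reads, more than any tested factor.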
